A study of Mus musculus with 2 samples.

Results

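The tumour necrosis factor (TNF) ligands, their receptors and the TRAF adaptors that carry the receptors' signals were described in spleen cells of C57BL/6 mice bearing hepatocellular carcinoma, a liver cancer. All genes whose single symbol in the platform annotation was Tnf, Lta, Ltb, Ltbr, Fas, Fasl, Cd27, Cd70, Cd40, Cd40lg, Birc2 or Birc3, or began with Tnfsf, Tnfrsf or Traf and a digit, were taken. The rule itself uses no measured value, though it was proposed with earlier results of these data known. The rule gave 48 of the 18193 genes on the arrays. They were 13 ligands, 23 receptors, 6 TRAFs, Birc2 and Birc3, which bind TRAFs, and 4 further symbols that share the letters. CD45-negative cells were Ter119-positive and CD45-negative, Ter119 being a surface antigen of the red cell lineage, and CD45-positive cells, the common white cell fraction, came from the same tumour-bearing mice. Both groups thus came from tumour-bearing animals, and no spleen of a tumour-free mouse entered the comparison. Each group had 1 array, and whether several mice were pooled, and their age and sex, are not given in the sources used here.

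TNF ligands are mostly made as membrane proteins, act as trimers and cluster receptors on other cells. Receptors with a death domain in their cytoplasmic tail can start cell death through adaptors and caspases, while most others bind TRAF proteins and activate the NF-kappaB transcription factors, and decoy receptors bind ligand without passing on a full signal. In spleen the family is best known for building B and T cell areas, for B cell survival through BAFF and for costimulation of T cells, and in red cell production Fas is known as a brake on early erythroblasts.

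No difference could be tested, since each group had a single array, and no p-value is given. Genes with several probe sets gave the only repeated measure: over 5474 such genes the difference had a pooled SD of 0.83 (log2) between probe sets, which is not replicate error. Values are deposited intensities on a linear scale, and differences are log2 intensity in CD45-negative cells minus that in CD45-positive cells. A gene counted as measured above an intensity of 101.1, below which lay 95% of the values of 80 probe sets of smell and pheromone receptor genes, assumed to be silent in spleen. That level was 127.3 in the CD45-negative array alone, and folds printed as "at least" for genes dim in that array are taken against 127.3. The common level was passed by 54.2% of all genes in CD45-negative cells and by 56.1% in CD45-positive cells. Ptprc, which encodes CD45, had 422.7 in CD45-negative cells against 32146.9 in CD45-positive cells. All 5 erythroid markers on the list were at least 4-fold higher in CD45-negative cells (median difference 6.12), with Alas2, the erythroid enzyme of haem synthesis, at 69687.4 against 1082.4. The 5 megakaryocyte and platelet markers were higher too (median difference 4.58). The 4 B cell and 4 T cell markers were all at least 4-fold lower, both lists having a median difference of -5.76. Fewer cells of a type and less RNA per cell cannot be told apart in such bulk samples.

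Most of the TNF family was dimmer in CD45-negative cells, and 1 receptor, Tnfrsf21, went the other way. Of the 48 genes, 18 were above the level in CD45-negative cells, 32 in CD45-positive cells, 16 of them in both, and 14 in neither. Of the 34 measured, 15 (44.1%) were at least 4-fold lower in CD45-negative cells, a class that held 16.8% of the 11793 measured genes of the arrays, and 1 was at least 4-fold higher, against 8.31% of all. The remaining 18 were in neither class. The median difference of the measured members was -1.52, and that of all measured genes was -0.26. These counts and medians describe the genes that passed the level: 16 members passed it only in CD45-positive cells and could not come out higher, and 2 only in CD45-negative cells. At a 2-fold threshold, 21 members were lower and 1 higher, where 33.3% of all measured genes were lower and 16.8% higher. Quantile normalization moved the median of all genes by 0.27 and median centring by 0.23, and under either scaling 12 of 32 measured members were at least 4-fold lower, against 12.8% of all measured genes after quantile normalization and 14.1% after median centring.

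**Figure D1:**
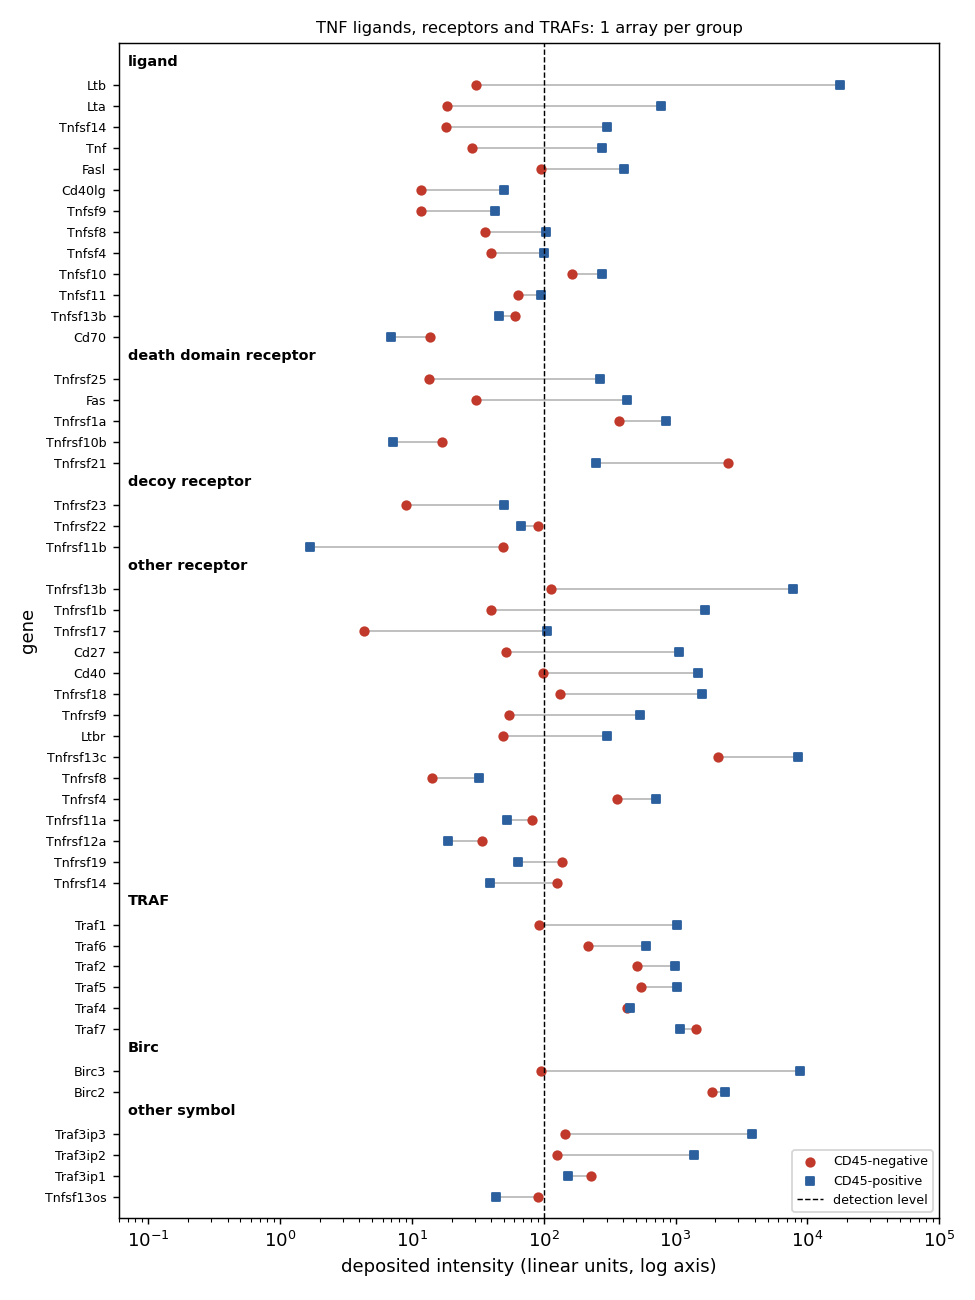
Deposited intensity (linear units on a log axis) of each of the 48 genes, grouped by role, in CD45-negative cells (red circles) and CD45-positive cells (blue squares), 1 array each. The dashed line is the detection level of 101.1. Most circles lie left of their squares, and Tnfrsf21 (2500.1 against 249.6) is the widest gap in the other direction among genes above the level.

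**Figure D2:**
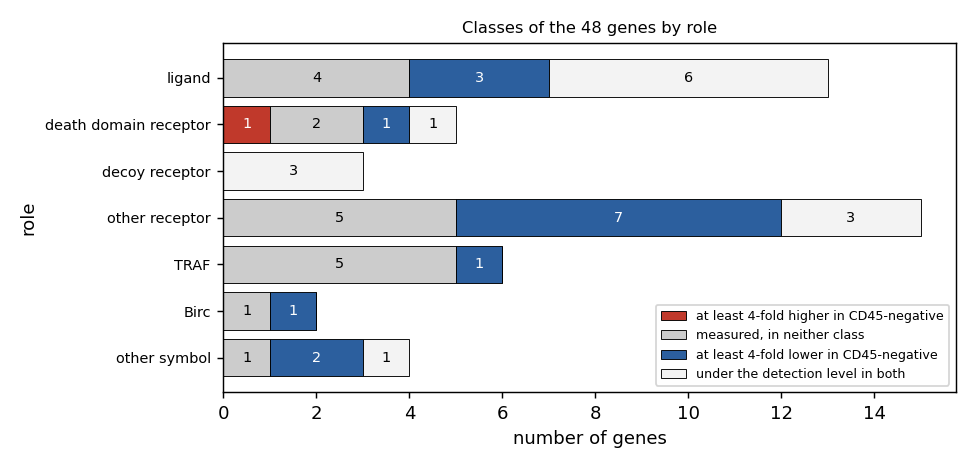
Number of genes per role in each class, with bars stacked from 0. The 15 lower genes include 3 ligands, 8 receptors and 1 TRAF, the only higher gene is a death domain receptor, and all 3 decoy receptors were under the level in both arrays.

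Tnfrsf21 encodes DR6, a receptor with a death domain that is best known from neurons and from the restraint of T helper cell responses. Its brighter probe set had 2500.1 in CD45-negative cells against 249.6 in CD45-positive cells, a difference of 3.32 (10.02-fold higher). The second probe set had 780.6 against 92.1, a difference of 3.08, with the CD45-positive value under the detection level. With that value set to the level, the difference was 2.95, a bound. Both probe sets thus lay past 4-fold in the same direction. Over the 8 alternative settings computed for single genes, the difference ran from 2.95 to 3.63. The promoter of Tnfrsf21 is shown as that of the only member past 4-fold in this direction, beside those of the neighbouring ligand genes Ltb, Tnf and Lta, the first and last of which were at least 4-fold lower. The sequences, from RefSeq on GRCm38.p6, run from 250 bases before to 50 after the annotated start, 5′ to 3′ on the gene's strand. They lie at chr17:43016305-43016604 (plus strand, Tnfrsf21), chr17:35194257-35194556 (plus, Ltb), chr17:35201958-35202257 (minus, Tnf) and chr17:35205302-35205601 (minus, Lta). Capitals mark a match on either strand to AGATAA or TGATAA, the core letters of GATA factor sites, to CCACACCC, a site type of erythroid Kruppel-like factors, or to GGGNNTTTC, the leading letters of a common form of the NF-kappaB site.
Tnfrsf21: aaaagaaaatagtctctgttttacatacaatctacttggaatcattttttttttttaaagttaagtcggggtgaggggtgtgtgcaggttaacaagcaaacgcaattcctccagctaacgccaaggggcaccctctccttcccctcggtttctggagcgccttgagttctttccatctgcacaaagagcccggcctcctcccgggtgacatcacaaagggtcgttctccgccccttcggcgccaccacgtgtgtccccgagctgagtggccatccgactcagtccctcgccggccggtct
Ltb: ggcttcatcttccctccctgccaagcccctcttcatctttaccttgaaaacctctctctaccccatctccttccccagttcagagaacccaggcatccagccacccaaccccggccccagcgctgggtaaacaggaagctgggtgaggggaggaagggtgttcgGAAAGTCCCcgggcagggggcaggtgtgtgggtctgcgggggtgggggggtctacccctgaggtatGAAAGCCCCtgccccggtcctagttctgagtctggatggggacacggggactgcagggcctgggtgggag
Tnf: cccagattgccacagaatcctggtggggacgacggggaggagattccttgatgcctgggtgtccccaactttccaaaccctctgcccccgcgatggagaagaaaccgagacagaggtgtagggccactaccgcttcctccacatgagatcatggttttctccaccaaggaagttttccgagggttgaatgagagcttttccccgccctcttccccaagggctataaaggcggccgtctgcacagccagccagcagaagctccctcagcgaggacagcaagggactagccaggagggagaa
Lta: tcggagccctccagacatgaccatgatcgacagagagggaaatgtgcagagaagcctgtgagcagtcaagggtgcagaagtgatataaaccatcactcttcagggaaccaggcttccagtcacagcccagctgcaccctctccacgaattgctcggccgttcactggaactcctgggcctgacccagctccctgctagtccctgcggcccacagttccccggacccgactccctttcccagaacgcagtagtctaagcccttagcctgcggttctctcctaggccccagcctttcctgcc
The only matches among these were GAAAGTCCC and GAAAGCCCC in the Ltb window, both the NF-kappaB form on the reverse strand, and the other 3 windows held none of these letters. Promoters were given for 38 of the 48 genes, 43 windows in all. The NF-kappaB form was found in 5 of the 43 (11.6%), namely those of Ltb, Tnfrsf17, Tnfrsf25, Tnfrsf9 and Traf2, against 4.36% of all 32851 windows of this length. AGATAA was in 1 (Tnfsf13b) and TGATAA in 3 (Birc3, Tnfrsf4 and Tnfrsf9), or 2.33% and 6.98% against 11.2% and 9.05% of all. CCACACCC was in 1 (Traf5), or 2.33% against 3.56%. A match is a run of letters and not a shown binding site.

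Most ligand genes were above the level only in CD45-positive cells or in neither sample. Of the 7 measured, 6 were under the level in CD45-negative cells, so their differences are bounds that the CD45-positive intensity sets, and bounds of different genes have no order. Ltb, whose product anchors lymphotoxin in the membrane and is needed for lymphoid architecture, had 30.7 in CD45-negative cells against 17780.6 in CD45-positive cells, at least 140-fold lower. Lta, the partner subunit that can also be secreted, had 18.4 against 778.6, at least 6.12-fold lower. Tnf, which lies between them on the chromosome with no other coding gene in the group, had 28.7 against 275.5, at least 2.16-fold lower and so not settled as to 4-fold. All 3 neighbouring genes were under the level in CD45-negative cells and above it in CD45-positive cells. For Fasl, the death ligand of cytotoxic cells, the values were 95.2 and 405.8. It passed 4-fold only narrowly, with a difference of -2.005 against the common level, and was at least 3.19-fold lower against 127.3, so the call did not hold there. Its other probe set had 40.8 against 584.6, a difference of -2.53 with the dim value at the common level.

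Other ligands were dim. Tnfsf14 (LIGHT, a ligand of Ltbr and Tnfrsf14) had 18.3 against 300.7, at least 2.36-fold lower. Tnfsf10 (TRAIL), the only ligand whose chosen probe set was above the level in CD45-negative cells, had 163.5 against 278.2, a difference of -0.77. Another probe set had 42.9 against 236.1, a difference of -1.22 with the dim value at the level, which is within the spread between probe sets. Tnfsf8, the ligand of CD30, had 35.6 against 104.7, just above the level. By their chosen probe sets the remaining 6 ligands were under the level in both arrays, including Tnfsf13b, which encodes the B cell survival factor BAFF (60.7 against 45.7), Tnfsf11, the osteoclast factor RANKL (63.8 against 95.9), and Tnfsf4, a T cell costimulator (40.1 against 100.5). Cd40lg, Tnfsf9 and Cd70, which are ligands of activated lymphocytes and antigen-presenting cells, lay between 6.9 and 49.7 in both arrays. The chosen probe sets of these 6 gave no measured difference against the common level. In CD45-positive cells those of Tnfsf11 and Tnfsf4 did lie above that array's own level of 73.5. A second probe set of Tnfsf11 had 102 against 29.6, barely past the level in CD45-negative cells, under that array's own level of 127.3 and opposite in direction to the chosen one, so no direction holds for Tnfsf11.

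Of the death domain receptors beside Tnfrsf21, Tnfrsf1a was measured in both samples and Fas only in CD45-positive cells. Tnfrsf1a, the broadly expressed TNF receptor that starts both NF-kappaB and death signals, had 372 in CD45-negative cells against 852.3 in CD45-positive cells, a difference of -1.20 (2.29-fold lower). Fas had 30.4 against 430.7. This is a difference of -2.09 against the common level but at least 3.38-fold lower against 127.3, so its place past 4-fold depended on the level. Tnfrsf25 (DR3, a receptor of T cells) had 13.5 against 268.4, at least 2.11-fold lower, and Tnfrsf10b, the mouse death receptor for TRAIL, had 16.9 against 7.2, both under the level. The 3 decoy receptors were under it in both arrays as well. Of them Tnfrsf11b (osteoprotegerin, the decoy for RANKL) had 49.2 against 1.7, Tnfrsf22 had 90.8 against 67.2 and Tnfrsf23 had 9.1 against 50.4, the Tnfrsf22 and Tnfrsf23 products being decoys for TRAIL in mice. A probe set named for both Tnfrsf22 and Tnfrsf23, which took no part in the counts, had 83.6 against 180.3.

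The receptors of BAFF and its relative APRIL differed in how far they were lower. Tnfrsf13b (TACI) had 113.7 in CD45-negative cells against 7716.4 in CD45-positive cells, at least 60.6-fold lower by its 1 probe set. The annotated span of Tnfrsf13b overlaps that of the coding gene Usp22, which had 195.5 against 1956.1. Whether Usp22 had a part in the Tnfrsf13b value was not tested. Tnfrsf13c, the BAFF receptor that mature B cells need to survive, had 2084.6 against 8497.9, a difference of -2.03 (4.08-fold lower). It was thus well above the detection level in CD45-negative cells, where Tnfrsf13b was close to it. The 4 B cell markers, with a median difference of -5.76, had 181.7 to 630.2 in CD45-negative cells and 12784.9 to 30836.6 in CD45-positive cells. Tnfrsf13c has 1 probe set, so its value had no second measure, and after median centring the difference was -1.75, under 4-fold. An adjacent coding gene, the centromere gene Cenpm, had 1165.5 against 299.9 and was brighter in CD45-negative cells, and whether this bears on the Tnfrsf13c value was not tested. Tnfrsf17 (BCMA), the receptor of plasma cells, had 4.3 against 105.9, just above the level in CD45-positive cells. The plasma cell gene Jchain had 484.9 against 27244.5.

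Receptors of costimulation were lower or dim. Cd40, through which T cells license B cells and dendritic cells, had 98.2 against 1485.1, at least 11.7-fold lower. With dim values at the level, its 3 probe sets gave differences between -4.07 and -3.57. Cd27, a receptor of T cells and memory B cells, had 51.7 against 1059.9, at least 8.33-fold lower. Tnfrsf1b, the TNF receptor of white cells without a death domain, had 39.6 against 1664.7, at least 13.1-fold lower, though its other probe set had 91.6 against 347.5 and the mean of both, with its dim side at the level, gave -2.91. These 3 receptors were above the level only in CD45-positive cells.

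Tnfrsf18 and Tnfrsf4 are adjacent genes for GITR and OX40, costimulatory receptors of regulatory and activated T cells. Tnfrsf18 had 133.6 in CD45-negative cells against 1578.6 in CD45-positive cells, 11.8-fold lower. Tnfrsf4 had 360.4 against 713.9, a difference of -0.99 (1.98-fold lower). The neighbours therefore stood on different sides of the 4-fold line, each by 1 probe set, and this contrast was not tested. The annotated span of Tnfrsf4 overlaps that of Sdf4, a calcium-binding protein gene, which had 3672.5 against 5357.8, and its part in the Tnfrsf4 value was not tested. The 4 T cell markers had 18.4 to 128.9 in CD45-negative cells.

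Tnfrsf9, the receptor of activated T and natural killer cells also named CD137, had 54.3 against 540.6, at least 4.25-fold lower by its brightest probe set. Its other 2 probe sets were under the level in both arrays, so the call rests on 1 probe set. Ltbr, the lymphotoxin receptor of stromal and myeloid cells, had 48.9 against 303.4, at least 2.38-fold lower. Both genes were above the level only in CD45-positive cells.

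A pair of receptors was above the level only in CD45-negative cells, both barely. Tnfrsf19 (TROY) had 137.3 against 63.4, at least 1.36-fold higher, but its other 2 probe sets were under the level. Tnfrsf14 (HVEM, the receptor of LIGHT) had 127.2 against 38.9, which lies under the CD45-negative array's own level of 127.3, so its bound is not secure. Tnfrsf8, Tnfrsf11a and Tnfrsf12a, which encode CD30, RANK and the TWEAK receptor, were under the level in both arrays. Their values lay between 14.1 and 81.7 in CD45-negative cells and between 18.9 and 52.3 in CD45-positive cells.

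**Figure D3:**
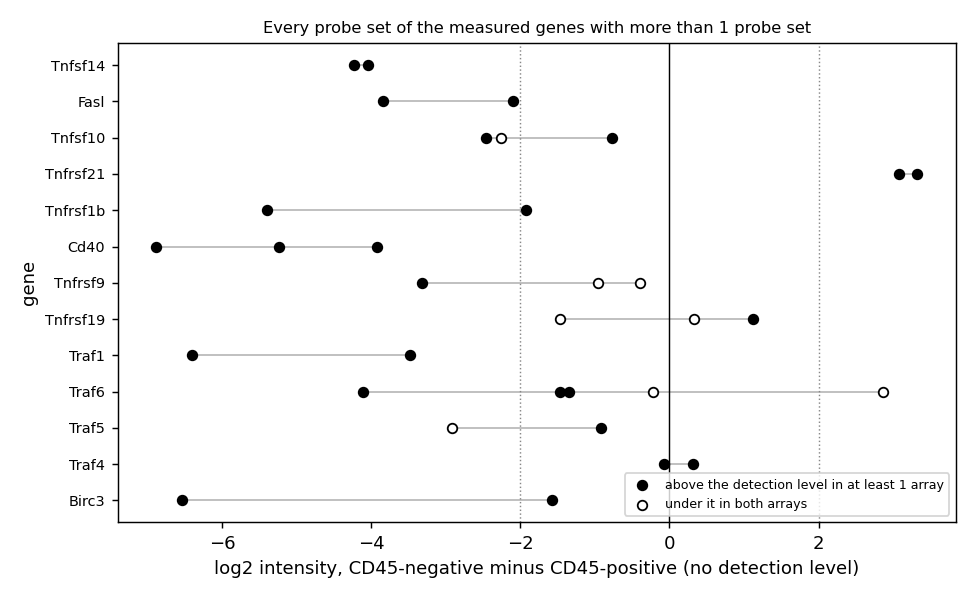
Log2 intensity in CD45-negative minus CD45-positive cells, with no detection level, for every probe set of the 13 measured genes that have more than 1. Filled points were above the detection level in at least 1 array, open points in neither, and dotted lines mark 4-fold. Where either value was under the level, the plotted size includes background and is not measured. Both probe sets of Tnfrsf21 lie at the right, at 3.08 and 3.32, and those of Birc3 lie far apart at -6.54 and -1.58.

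Differences of the TRAFs were mostly small. All 6 were measured, 1 of them (16.7%) past 4-fold on the lower side and 5 within it. That share was near the 16.8% of all measured genes. The median difference of the TRAFs was -0.94, beside -1.81 for the 16 measured receptors and -0.26 for all measured genes. Neither contrast was tested. Of those receptors, 8 were above the level only in CD45-positive cells and 2 only in CD45-negative cells. Their median thus mixes bounds with measured values, whereas 5 of the TRAFs were above the level in both arrays. Traf1, an adaptor of activated lymphocytes that is itself induced by NF-kappaB, had 92.4 in CD45-negative cells against 1031.1 in CD45-positive cells, at least 8.10-fold lower. Its second probe set had 8 against 676.6, in the same direction. Traf2, the ubiquitin ligase adaptor that brings Birc2 and Birc3 to receptors, had 512 against 995.3 (-0.96), and Traf5, its close relative, 544.2 against 1031.1 (-0.92). Both were thus near 2-fold lower and well above the level in both samples. Traf6, which serves CD40, RANK and Toll-like receptors, had 215.5 against 596.3 (-1.47), and a second probe set had 175.8 against 445.8 (-1.34). The mean of its 5 probe sets, with its dim side at the level, gave only -0.27. That mean takes in probe sets under the level in both arrays, at 62.5 against 72.8 and 59.7 against 8.2. For Traf4, whose product acts in epithelia and migration, the values were 425.7 and 448, a difference of -0.07. Traf7, the member without the domain by which other TRAFs bind receptors, had 1419.5 against 1088.7, a difference of 0.38. These last 2 differences were smaller than the spread between probe sets.

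Birc2 and Birc3 are adjacent genes for the related inhibitor of apoptosis proteins cIAP1 and cIAP2, which TRAF2 carries to the receptors. Birc2 had 1902.7 in CD45-negative cells against 2375.1 in CD45-positive cells, a difference of -0.32. Birc3, a well-known NF-kappaB target, had 95.2 against 8838.1, at least 69.4-fold lower, with 68.6 against 205.3 for its other probe set and a mean, with its dim side at the level, of -3.74. The neighbours differed in what the arrays gave: the Birc2 difference was within the spread between probe sets, the Birc3 difference past it by its brighter probe set and by the mean.

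Of the 4 further symbols, Traf3ip3, a membrane protein of lymphocytes, had 144.2 against 3834, 26.6-fold lower. Its annotated span overlaps that of the coding gene A130010J15Rik, which had 48.1 against 155, and a part of that gene in the Traf3ip3 value was not tested. Traf3ip2 (Act1, the adaptor of the interleukin-17 receptor) had 125.3 against 1380.7, at least 10.8-fold lower. Traf3ip1, a protein of cilia, had 227.8 against 154, a difference of 0.56. Tnfsf13os, a transcript of the strand opposite Tnfsf13, was under the level in both arrays (90.8 against 43.4). None of them is a ligand, receptor or TRAF, and without them 13 members were at least 4-fold lower and 1 higher, a count chosen after seeing the data. Probe sets named for Tnfsf12 or Tnfsf13 together with a fused transcript were outside the counts and had 108.3 against 248.5 and 224 against 220.7.

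Neighbouring measured members shared a direction but not always a size of difference. Of the 48 genes, 47 were protein-coding in RefSeq and 8 pairs were adjacent coding genes, 4 of them with both members measured. These 4 pairs were Ltb with Tnf, Tnf with Lta, Tnfrsf4 with Tnfrsf18, and Birc2 with Birc3. All their values were dimmer in CD45-negative cells, as were those of 29 of the 34 measured members. Tnfrsf4 with Tnfrsf18 and Birc2 with Birc3 each joined a gene past 4-fold and a gene within 2-fold. Cd27, Ltbr and Tnfrsf1a, which follow each other with 1 coding gene between neighbours, were all dimmer, with differences of -3.39, -1.59 and -1.20 when dim values are set to the common level.

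The signalling genes behind the receptors, in 6 lists, were lower more often than higher in CD45-negative cells. Of 42 genes, all measured, 16 were at least 4-fold lower (15 of 41 without Ikbkb, whose probe sets disagree) and 2 higher, with a median difference of -1.34. Those shares stand beside 16.8% lower and 8.31% higher of all measured genes. Of the 42 genes, 9 passed the level only in CD45-positive cells and could not come out higher, and 1 only in CD45-negative cells. Those 9 held 8 of the 16 lower genes. Of 13 genes of the receptor complex and its kinases, 5 were lower and 1 higher. Casp8, the caspase that starts receptor-mediated death, had 756.2 against 4102.1 (5.42-fold lower), while Tab3, an adaptor of the kinase TAK1, had 6199.6 against 528.8 (11.7-fold higher). Map3k5, a stress kinase downstream of TRAF2, had 53.6 against 1395.6 (at least 11.0-fold lower), and Ikbke had 151.9 against 1272 (8.37-fold lower). Map3k14, the kinase of the alternative NF-kappaB pathway, had 93.9 against 464.3 and was among the 5, though only at least 3.65-fold lower against 127.3. The kinase gene Map3k7, which encodes TAK1, and Tab2 were in neither class, at 1128.7 against 678.4 and 8995.6 against 5937.6. With no detection level the 6 probe sets of Map3k7 ran from -2.50 to 0.75, so its direction is uncertain.

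NF-kappaB factors and their feedback inhibitors were on the lower side. Of 6 NF-kappaB kinases and factors, 3 were at least 4-fold lower and 0 higher, or 2 of 5 without Ikbkb. Of all measured genes, 16.8% were lower and 8.31% higher. Of the 6, 2 passed the level only in CD45-positive cells and could not come out higher, both among the 3 lower. Ikbkb, a catalytic kinase of the pathway, had 232.7 against 4103, but its probe sets ran from -4.14 to 1.94, so its direction is uncertain. Relb and Rel, factors of lymphoid cells, had 84.1 against 1100 and 43 against 591.3, while Rela, found in most cells, had 1502.3 against 3866.9 (-1.36). Of 10 feedback inhibitors, 4 were lower and 0 higher. Among the 10, 3 passed the level only in CD45-positive cells and could not come out higher, 2 of them among the 4 lower. Nfkbia, the inhibitor that NF-kappaB itself induces, had 1890.8 against 25870.7 (13.7-fold lower), and Tnfaip3, the ubiquitin-editing enzyme A20, had 256.9 against 4376.8 (17.0-fold lower). Nfkbie and Bcl3, both relatives of Nfkbia, were at least 11.4-fold and at least 10.4-fold lower. No member of the linear ubiquitin ligase (Rnf31, Rbck1 and Sharpin) passed 4-fold, and the median of these 3 was -1.22.

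The lists of death execution and ligand shedding each held brighter and dimmer genes. Of 6 execution genes, 2 were at least 4-fold lower. Ripk3, the kinase of necroptosis, had 48.4 against 1403 (at least 11.0-fold lower), whereas its target Mlkl had 384.8 against 89.8 (at least 3.81-fold higher). Bid, which links death receptors to mitochondria, was 9.36-fold lower by its chosen probe set. With no detection level the 3 probe sets of Bid ran from -3.45 to -1.25, so not all passed 4-fold. Xiap, the direct caspase inhibitor, had 2568.1 against 2849.1. With no detection level its 7 probe sets ran from -1.55 to 2.33, so the direction for Xiap is uncertain. Of the 4 shedding genes, Adam17, the protease that releases TNF, had 369.4 against 1588.5 (4.30-fold lower), while Adam10, a protease that sheds other ligands such as Fasl, had 16082.7 against 3228.2 (4.98-fold higher). With no detection level the 3 probe sets of Adam17 ran from -2.15 to -1.61 and the 4 of Adam10 from 1.28 to 2.56. For neither gene did all probe sets pass 4-fold. Rhbdf2, which brings ADAM17 to the surface, had 26.5 against 610.6 (at least 4.80-fold lower).

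**Figure D4:**
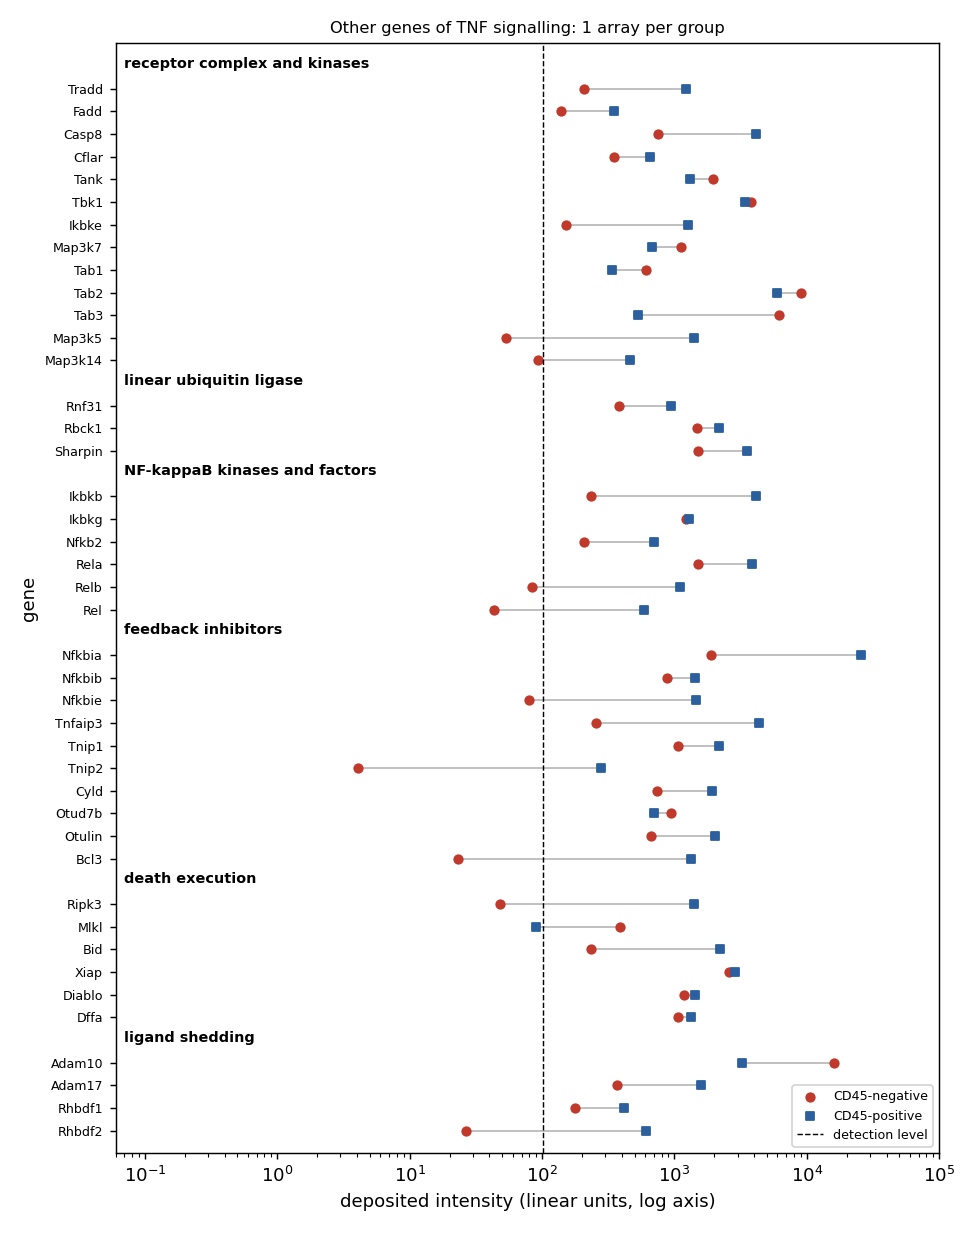
Deposited intensity (linear units on a log axis) of 42 further genes of TNF signalling in 6 lists, in CD45-negative cells (red circles) and CD45-positive cells (blue squares), 1 array each, with the detection level of 101.1 as a dashed line. Tab3 (6199.6 against 528.8) and Adam10 (16082.7 against 3228.2) are the genes past 4-fold with the circle at the right.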

How the data were processed

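RNA of 2 sorted spleen samples, 1 per group, was measured on Affymetrix 3' arrays from 500 ng total RNA, per the labels' protocols. The deposited values were 1 linear intensity per probe set and array, made by the authors. The submitters' processing notes name GCRMA and Partek 6.6 without a role, so the normalization, detection calls and saturation are not settled. Of 45037 probe sets, 34945 had 1 symbol in the platform annotation, and 78 of these belonged to the 48 members. Groups were taken from the sample titles.

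The analysis took log2 of the deposited intensity and added no pseudocount. The probe set with the highest mean log2 value stood for a gene, and a value at or under the detection level was set to it, so such differences hold against the common level of 101.1 only. Folds printed as "at least" use the stricter 127.3 on the CD45-negative side. No test was possible with 1 array per group, and this number limits the precision of every value. Every member was named, other list genes by the size of their difference or their role. The design file counts all Tnfsf symbols as ligands, but Tnfsf13os was set apart as an opposite-strand transcript. Members, lists and motifs were chosen with earlier results of these data known. Alternatives were other detection levels, scalings, probe set rules, a 2-fold threshold and a pseudocount of 50. Promoters came from RefSeq on GRCm38.p6, and the arrays' values carry no genome build. The scripts, tested on simulated data, ran in Python 3.11.15 with pandas 2.3.3, numpy 2.4.6 and matplotlib 3.10.9.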

Additional observations from a re-analysis of the deposited data

How the results depend on the processing

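Under 9 alternative settings and the count without the 4 further symbols, 12 to 22 members were past the threshold on the lower side, against 15 as reported. The threshold was 4-fold except in 1 setting, where 21 members were at least 2-fold lower. The planned settings at 4-fold measured 30 to 48 members, and 11.1% to 18.1% of all measured genes were lower there. The median difference lay between -1.52 and -0.88. The highest count, 22, came with no detection level, which also gave 2 higher members in place of 1, the second being Tnfrsf11b at 49.2 against 1.7, both under the level. Of the 16 members past 4-fold, 12 stayed past it in the same direction in every setting that gave them a value (11 lower, and Tnfrsf21 higher). The other 4 did not: Fas and Fasl under stricter or separate detection levels and both scalings (up to -1.43 and -1.34), Tnfrsf9 with the 99th percentile, quantile normalization or the mean of probe sets (-0.17, with 2 probe sets under the level averaged in and the dim side at the level), and Tnfrsf13c with median centring (-1.75). Fasl was also under 4-fold with the pseudocount. Of 262 single-gene values, 243 moved by less than the spread between probe sets, 19 by more, and 0 past 4-fold turned their sign. No paired analysis was possible because each group has 1 array. Leaving out a replicate was not possible for the same reason. Signal over background limits 12 of the 15 lower genes, for which only a bound holds.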
